A study of Mus musculus with 6 samples.

Results

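Gbp2, Gbp3 and Gbp7 are guanylate-binding protein (GBP) genes, and their RNA polymerase II signal was examined in mouse adrenal glands with and without Armc5. They were taken by name, by a rule that holds no measured value, although earlier results of these data were known, and are 3 of the 12718 genes in the count tables, which hold 7 GBP genes in all (Gbp2, Gbp3, Gbp4, Gbp6, Gbp7, Gbp8 and Gbp9). The polymerase was captured by chromatin immunoprecipitation with an antibody that binds the N-terminal domain (NTD) of its largest subunit, RPB1, and the recovered DNA was sequenced (ChIP-seq). The 2 groups were WT females and Armc5(-/-) females of strain 129 sv X CD1, aged 10 to 14 months, with 3 libraries each. The labels name no treatment and give no promoter or cell type for the deletion, and the 6 libraries carry 6 different mouse numbers, so each was counted as 1 animal. ARMC5 is an adaptor of a CUL3 ubiquitin ligase that acts on RPB1. The comparison asked whether loss of Armc5 went with a different RPB1 signal at the transcription start site (TSS), in the gene body or at the transcription end site (TES) of these genes.

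GBPs are large GTPases of the dynamin superfamily. Interferon-gamma induces them: its receptor signals through the kinases JAK1 and JAK2 to transcription factors that bind gamma-activated sites, while interferon regulatory factors bind interferon-stimulated elements in the same promoters. GBPs assemble on vacuoles and membranes of intracellular microbes and promote their lysis and inflammasome activation. RPB1 ChIP-seq reads report polymerase on the gene, not the amount of mRNA. In a whole gland, a change in the share of a cell type cannot be told apart from a change in signal per cell.

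In the RefSeq annotation of GRCm38.p6 the 3 genes lie in 1 cluster on chromosome 3, all protein coding and all on the plus strand. Gbp7 spans 142530336 to 142550151, Gbp3 spans 142560016 to 142573213 and Gbp2 spans 142620663 to 142638008. Gbp7 and Gbp3 are 9864 bp apart, and Gbp2 begins 1483 bp after the end of Gbp2b, a family gene with no row in the tables used here. The promoters of the 3 genes are shown because each held a letter match to at least 1 kind of interferon element named above. Each line runs from 150 bases before to 30 bases after an annotated start (chr3:142530186-142530365, chr3:142559894-142560073 and chr3:142620513-142620692, plus strand), and capitals mark every match to the gamma-activated site TTCNNNGAA or, on either strand, to the interferon regulatory factor core GAAANNGAA.

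Gbp7: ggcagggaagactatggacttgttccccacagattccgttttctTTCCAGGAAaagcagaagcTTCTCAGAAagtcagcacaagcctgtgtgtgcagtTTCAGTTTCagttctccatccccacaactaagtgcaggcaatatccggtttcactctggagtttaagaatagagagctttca

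Gbp3: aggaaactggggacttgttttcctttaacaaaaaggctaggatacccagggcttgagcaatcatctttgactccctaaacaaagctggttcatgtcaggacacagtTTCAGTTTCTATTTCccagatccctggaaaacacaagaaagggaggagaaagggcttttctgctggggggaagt

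Gbp2: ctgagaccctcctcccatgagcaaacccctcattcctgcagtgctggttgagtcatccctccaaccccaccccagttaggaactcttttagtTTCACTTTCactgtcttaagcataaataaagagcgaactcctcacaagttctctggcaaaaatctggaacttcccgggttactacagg

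Gbp7 held 2 gamma-activated site matches, at 106 to 98 and 87 to 79 bases before the start, and 1 core match at 52 to 44 bases before it. In Gbp3 there were 2 core matches that overlap, within 44 to 30 bases before the start, and no gamma-activated site in the window of 250 bases before to 50 after. Gbp2 had 1 core match, 58 to 50 bases before its start, and also no gamma-activated site. Every core match lay on the minus strand, and the matched letters were GAAACTGAA in Gbp7 and in the first Gbp3 match, GAAATAGAA in the other Gbp3 match and GAAAGTGAA in Gbp2. Among 32851 mouse promoter windows of this length, 8.3% held the first motif, 8.56% the second and 1.07% both. Of the family neighbours in the same cluster, Gbp5 had 2 gamma-activated sites and 1 core match and Gbp2b had 1 core match. These are letter matches, with no factor binding measured here. Gbp3 has 2 starts in the sequence table, and the window of the other one held 0 matches. No stretch of 25 bases from the Gbp2 or Gbp7 promoter window recurred in another gene's window. Of the Gbp3 stretches 5 of 552 did, none of them in another GBP gene with a window. Only 5 GBP genes, all on chromosome 3, had windows, so sharing with the GBP genes of chromosome 5 could not be checked.

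**Figure D1:**
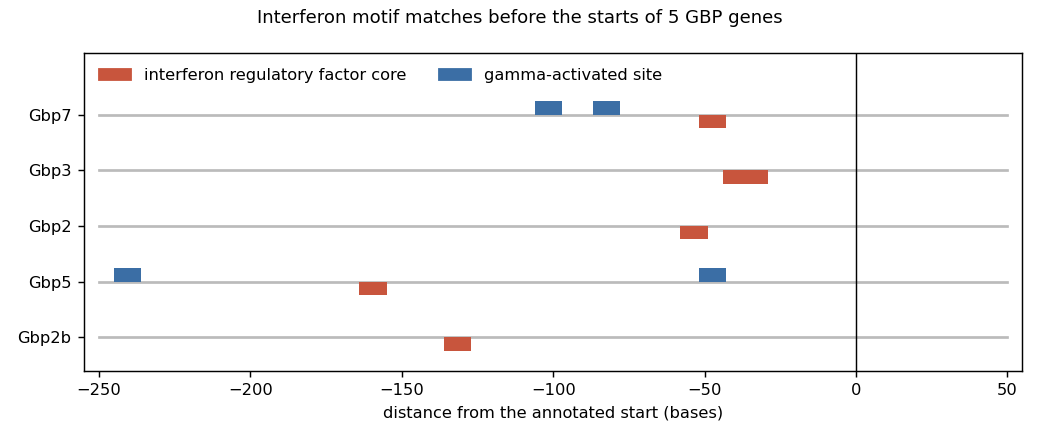
Positions of motif matches in the promoter windows of 5 GBP genes of the chromosome 3 cluster. The horizontal axis is the distance in bases from the annotated start (vertical line), red blocks are interferon regulatory factor core matches and blue blocks are gamma-activated sites. The matches of Gbp7, Gbp3 and Gbp2 lie within 106 bases before the start.

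Summed over the 3 regions the libraries held 14511177 to 28190157 reads: 1133364 to 3406223 at the TSS, 12419812 to 22523647 in the gene body and 958001 to 2294430 at the TES. The 3 shallowest libraries were WT 1, WT 2 and knockout 1, and in these the single gene model Gm10800 took 10.9% to 25.1% of TSS reads, against 2.67% to 4.66% in the other 3. The TSS share of all reads was 7.81% to 11.2% in WT and 9.93% to 12.1% in knockout libraries. All 9 steroidogenic markers listed for the adrenal cortex were present, with gene body sums of 2820 to 7030 CPM (reads scaled to a common library total) in WT and 4544 to 5661 in knockout glands, and none of them passed the test in any region. Armc5 itself was not analysed here.

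At the TSS, RPB1 signal of Gbp2 and Gbp7 lay higher in every knockout library than in every WT library, and that of Gbp3 overlapped, but none of the 3 genes passed the test over all genes. The threshold for a call was an adjusted p of 0.05 (edgeR quasi-likelihood F test, Benjamini-Hochberg over the table). With these settings 0.339% of 12682 tested genes were called higher in knockout at the TSS and 0% lower. Knockout values lay wholly above WT in 6.47% of genes, which is the background for the 2 of 3 members. By unadjusted p, 707 genes and 2 of the 3 members were under 0.05, and 0 members were called by DESeq2 or limma-voom.

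The Gbp2 protein coats parasite vacuoles and bacterial surfaces. Its TSS signal was 31.6, 37.2 and 22.7 CPM in WT libraries 1 to 3 and 43.3, 43.0 and 52.7 in the knockout libraries, from 36 to 157 reads. The lowest knockout value stood above the highest WT value. Means were 30.5 ± 7.32 CPM (SD, n = 3) in WT and 46.3 ± 5.50 CPM in knockout, a log2 fold change of 0.64 ± 0.25 (SE; 95% interval 0.098 to 1.18), with an edgeR adjusted p of 0.733. Within the 3 shallow libraries the ratio of knockout to WT was 1.26 and within the 3 deep ones 2.11.

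For Gbp7, which takes part in the oxidative defence of macrophages, the 3 WT libraries gave 32.1, 34.1 and 34.6 CPM at the TSS, and the knockouts gave 40.5, 46.5 and 51.6 CPM. The WT libraries were within a narrow band (33.6 ± 1.30 CPM) and the knockout libraries spread more widely above it (46.2 ± 5.54 CPM, SD, n = 3). The log2 fold change was 0.46 ± 0.21 (95% interval 0.0045 to 0.92), with an edgeR adjusted p of 0.877. Depth classes gave ratios of 1.22 (shallow) and 1.42 (deep).

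Gbp3 had the lowest TSS reads of the 3, 17 to 67 per library. Values of 9.26, 21.7 and 16.0 CPM in WT and 28.7, 18.4 and 19.0 in knockout overlapped, since WT 2 stood above knockout 2 and 3. Its log2 fold change of 0.51 ± 0.37 (95% interval -0.29 to 1.32; edgeR adjusted p = 0.952) was within the spread between libraries. The ratio was 1.85 in the shallow and 1.17 in the deep libraries.

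**Figure D2:**
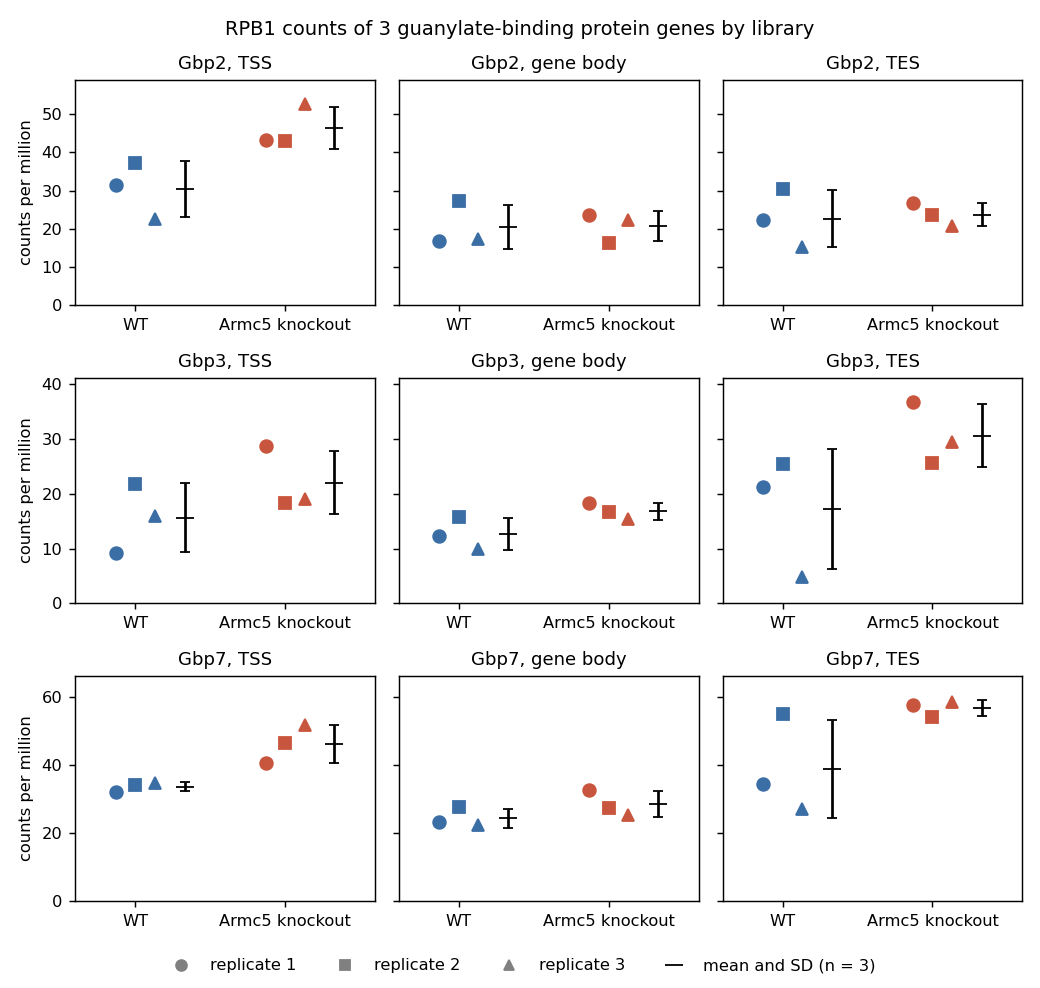
RPB1 signal of Gbp2, Gbp3 and Gbp7 in CPM (vertical axis, from 0) in each of the 6 libraries, by region. Points are single libraries, with a marker shape for each replicate number, and black bars are the mean and SD of 3. Knockout points are all above WT points for Gbp2 and Gbp7 at the TSS, and for Gbp3 at the TES by 25.6 against 25.5 CPM, where WT 3 is at 4.81 CPM.

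In the gene body the groups overlapped for all 3 genes, and none was called. Background calls were 0.244% higher and 0.00787% lower of 12714 genes, and knockout values lay wholly above WT in 6.51% of genes. At an unadjusted p under 0.05 there were 642 genes and 0 members, and DESeq2 and limma-voom also called 0 members. Gene bodies gave the most reads, 188 to 632 per library and gene, so these intervals rest on the best counted values.

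Gbp2 gene body signal was 17.0, 27.2 and 17.3 CPM in WT and 23.8, 16.3 and 22.4 in knockout, with WT 2 the highest of all 6 and knockout 2 the lowest. The means were 20.5 ± 5.80 and 20.8 ± 3.98 CPM (SD, n = 3). A log2 fold change of 0.03 ± 0.24 had a 95% interval from -0.53 to 0.58 (edgeR adjusted p = 0.990), which leaves room for a difference of that size either way. Gbp3, a GTPase of the same family, had 12.4, 15.8 and 9.99 CPM in WT and 18.4, 16.6 and 15.3 in knockout. Only WT 2 reached into the knockout range, and the log2 fold change was 0.41 ± 0.21 (95% interval -0.073 to 0.88; edgeR adjusted p = 0.934). Gbp7 had 23.2, 27.5 and 22.4 CPM in WT and 32.8, 27.3 and 25.4 in knockout, again with WT 2 inside the knockout range, and a log2 fold change of 0.23 ± 0.17 (95% interval -0.16 to 0.61; edgeR adjusted p = 0.934).

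Levels can be set beside each other only per length, which the gene body allows. Per kilobase of annotated gene, WT means were 1.23 ± 0.138 CPM per kb for Gbp7, 1.18 ± 0.334 for Gbp2 and 0.964 ± 0.220 for Gbp3 (SD, n = 3). In knockout glands the order of the levels was Gbp7 (1.44 ± 0.192), Gbp3 (1.27 ± 0.116) and Gbp2 (1.20 ± 0.229). Neighbours in each order differed by less than the larger of their SDs. The median over 12381 genes with a length was 1.73 CPM per kb in WT, and the 3 genes stood at the 31.2, 29 and 19.4 percentile (Gbp7, Gbp2, Gbp3), below the middle of the genes measured.

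At the TES, Gbp3 and Gbp7 had higher means in knockout glands and Gbp2 did not move beyond its spread, and once more none of the 3 was called. The background was 0.82% of 12680 genes higher, 0.0946% lower, and 6.69% with all knockout values above WT, against 1 of the 3 members. At an unadjusted p under 0.05 were 869 genes and 2 members, with 0 members called by DESeq2 or limma-voom.

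Gbp7 TES signal was 34.3, 54.9 and 27.1 CPM in WT and 57.5, 53.9 and 58.5 in knockout. The knockout libraries were close together, and WT 2 lay among them while WT 1 and WT 3 stood well below. Means of 38.8 ± 14.4 and 56.7 ± 2.41 CPM (SD, n = 3) gave a log2 fold change of 0.60 ± 0.24 (95% interval 0.11 to 1.09; edgeR adjusted p = 0.495). The ratio was 1.29 in the shallow and 2.07 in the deep libraries.

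For Gbp3 the TES gave 21.3, 25.5 and 4.81 CPM in WT libraries against 36.8, 25.6 and 29.5 CPM in knockouts. WT 3 held 11 reads, fewer than any other library, and the lowest knockout value was 25.6 CPM against the highest WT value of 25.5. The log2 fold change was 0.90 ± 0.42 (95% interval 0.051 to 1.74; edgeR adjusted p = 0.661), and without WT 3 it was 0.39 ± 0.35 (adjusted p = 0.730). Within the shallow libraries the ratio was 1.57, and within the deep ones, where WT 3 is the lone WT library, 5.73. With depth class as a covariate Gbp3 passed the test at the TES (1.44 ± 0.40, edgeR adjusted p = 0.0457). That fit called 184 of 12680 genes, against 116 without the covariate.

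Gbp2 TES signal was 22.5, 30.4 and 15.3 CPM in WT and 26.8, 23.8 and 20.7 in knockout, with all knockout values inside the WT range. Its log2 fold change was 0.09 ± 0.38 (95% interval -0.67 to 0.86; edgeR adjusted p = 0.991).

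All 3 genes had log2 fold changes above 0 in each region, where the median over all genes was -0.01 (TSS) or -0.02 (gene body, TES). The scaling within each region holds these medians near 0, so a change shared by most genes would not show in them. When scaled by the 3 regions stacked together, which moved those medians by 0.25, -0.11 and -0.10, Gbp2 turned to -0.09 over its gene body and to -0.01 at its TES, and the other members kept their sign. Within depth classes, 18 of 18 ratios of knockout to WT were above 1, the lowest being 1.02 for Gbp2 at the TES. Knockout 1 is the lone knockout library in the shallow ratios and WT 3 the lone WT library in the deep ones. These ratios therefore share libraries, and the share of all genes with such ratios is not given here.

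The regions were then compared within each gene, as the ratio of TSS or TES signal to gene body signal. Gbp2 had the largest difference of the 3 at the TSS, with ratios of 1.86, 1.37 and 1.31 in WT and 1.82, 2.64 and 2.35 in knockout, where WT 1 stood just above knockout 1. Knockout minus WT was 0.59 ± 0.27 on the log2 scale (95% interval -0.038 to 1.22; edgeR region by genotype term, adjusted p = 0.955). For Gbp3 and Gbp7 it was 0.08 ± 0.35 and 0.23 ± 0.27. With gene body scaling factors for both tables, which moved the median over all genes by 0.36, the values were 0.95 for Gbp2, 0.44 for Gbp3 and 0.59 for Gbp7. For the TES ratio the same difference was 0.08 ± 0.30 for Gbp2, 0.59 ± 0.40 for Gbp3 and 0.40 ± 0.25 for Gbp7, with edgeR adjusted p of 0.987, 0.854 and 0.843. Without WT 3 the Gbp3 value was 0.11 and that of Gbp7 0.23. None was called, against a background of 0% of 12679 genes for the TSS ratio, of which 462 had an unadjusted p under 0.05, and 0.0158% of 12677 for the TES ratio.

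The other 4 GBP genes of the tables lie on chromosome 5 (Gbp8, Gbp9, Gbp4 and Gbp6, from 105012513 to 105295871). At the TSS all 7 family genes had log2 fold changes above 0, with a median of 0.99 against -0.01 over all genes, and 6 of 7 had knockout values wholly above WT, as did 6.47% of all genes, while 0 of 7 were called by edgeR. With stacked scaling 2 of 7 were called, Gbp8 (edgeR adjusted p = 0.0383) and Gbp9 (0.0376). That scaling called 107 of 12682 genes and moved the median over all genes by 0.25. The chromosome 5 genes had the larger log2 fold changes, 0.99 to 1.14. Gbp4 was at 13.2 ± 3.78 CPM in WT and 25.3 ± 3.70 in knockout, and Gbp6 at 14.6 ± 2.06 and 30.3 ± 6.27 CPM (SD, n = 3). Gbp9 was at 14.0 ± 4.08 CPM in WT and 29.6 ± 8.08 CPM in knockout. Their adjusted p values were 0.522 (Gbp4), 0.367 (Gbp6) and 0.417 (Gbp8 and Gbp9) by edgeR. These genes are not 4 separate measurements, because Gbp8 and Gbp9 had the same TSS reads in every library within 1 read, and Gbp6 the same as Gm43302 within 1 read. Rows with such a match were 0 for Gbp2, Gbp3 and Gbp7 in any region, the nearest other row differing by 4 to 42 reads in at least 1 library. How reads that align to more than 1 family copy were placed is not given in the sources used here, so single members of the cluster are uncertain to that extent.

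In the gene body the family median was 0.23 with all 7 above 0, and 4 of 7 were above 0 under the stacked scaling. No family gene was called there and in none did the groups separate. At the TES 6 of 7 were above 0 with a median of 0.60 (5 of 7 under the stacked scaling), and Gbp9 alone was called: it rose from 26.8 ± 6.80 to 52.4 ± 9.71 CPM (SD, n = 3), a log2 fold change of 0.98 ± 0.26 with an edgeR adjusted p of 0.0459. That call ended without WT 2 (adjusted p = 0.122), WT 3 (0.175), knockout 1 (0.0828) or knockout 2 (0.488), and with DESeq2 (0.195) or limma-voom (0.0654), and it held in 7 of 18 alternative fits, over which the adjusted p ranged from 0.00814 to 1.00.

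**Figure D3:**
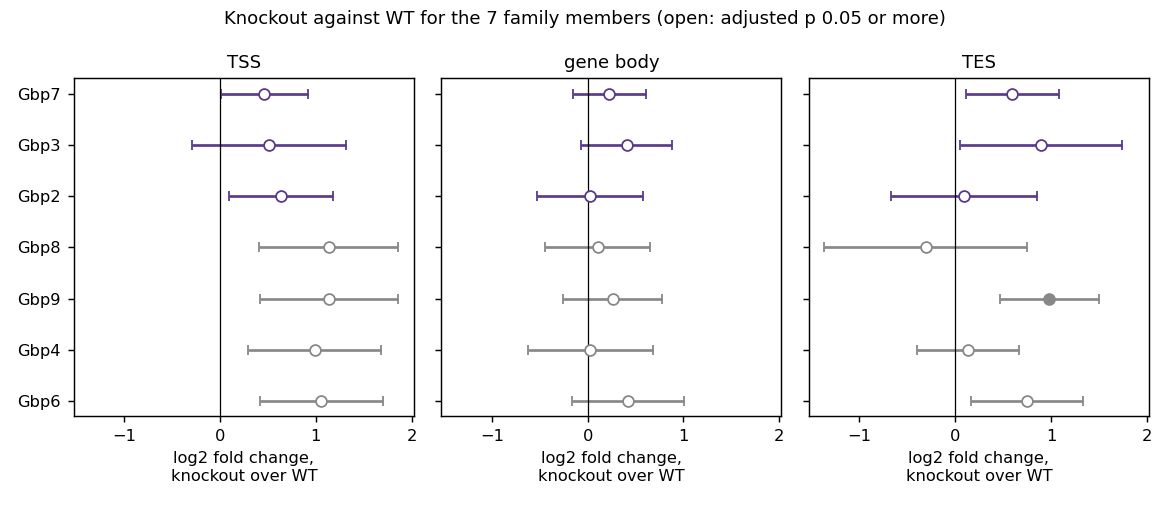
Log2 fold change of knockout over WT (horizontal axis) with its 95% interval for the 7 GBP genes in each region, the 3 chromosome 3 members in purple and the chromosome 5 genes in grey. Filled points have an adjusted p under 0.05, which holds for Gbp9 at the TES. At the TSS all 7 points lie to the right of 0, from 0.46 to 1.14.

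Beside the GBPs, interferon-gamma induces further GTPases, the immunity-related GTPases and their relatives, of which 9 were in the tables. Their log2 fold changes were above 0 in 9 of 9 genes at the TSS (median 0.68), 9 of 9 in the gene body (0.58) and 7 of 8 at the TES (0.52), and the smallest counts over all settings tried were 7, 9 and 6. Knockout values lay wholly above WT in 4, 4 and 3 of them, where the share over all genes was 6.47%, 6.51% and 6.69%. Irgm2 and Igtp had equal TSS reads in WT 1 (122) and WT 2 (89) but not in WT 3 (322 and 248). Whether these GTPase genes share reads was not checked, so they may not be 9 separate measurements. Only Iigp1 was called, at the TES, where it rose from 38.6 ± 11.1 to 74.1 ± 22.5 CPM (SD, n = 3; log2 fold change 0.98 ± 0.25, edgeR adjusted p = 0.0384). Iigp1 encodes a GTPase that loads onto parasite vacuoles together with GBPs. Its call ended without WT 2 (adjusted p = 0.0621), WT 3 (0.188) or knockout 2 (0.545), and with DESeq2 (0.207), and it held in 10 of 18 alternative fits.

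Upstream of the GBP promoters, the list of interferon-gamma receptor and JAK-STAT genes had 12 tested members, and their median was 0.23 at the TSS, 0.08 over the gene body and 0.03 at the TES. Irf8, an interferon-induced transcription factor of myeloid cells, rose in the gene body from 60.9 ± 9.72 to 133.5 ± 5.42 CPM (SD, n = 3; log2 fold change 1.13 ± 0.15, edgeR adjusted p = 0.0383). At the TES Irf8 rose from 65.3 ± 6.57 to 133 ± 8.65 CPM (adjusted p = 0.0117 by edgeR), and that call held with each of the 6 libraries left out in turn but not with stacked scaling (0.0557) or in the shallower libraries alone (0.9503). Irf9, a DNA-binding factor of type I interferon signalling, rose in the gene body from 26.5 ± 1.63 to 51.5 ± 1.13 CPM (log2 fold change 0.96 ± 0.13, edgeR adjusted p = 0.0436). The gene body calls were not stable to the choice of libraries or of settings. Leaving out 1 library gave edgeR adjusted p of 0.0520 to 0.308 for Irf9, so that none of the 6 fits called it. For Irf8 it gave 0.0459 to 0.271, and among these fits the call held only without WT 2. Stacked scaling also ended both calls (edgeR adjusted p of 0.148 for Irf8 and 0.122 for Irf9). The Irf8 call held in 8 of 18 alternative fits and the Irf9 call in 7 of 18.

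Of the 6 genes for the type I interferon receptor and its signalling, Irf7, which drives interferon transcription, was called at the TSS. It rose from 100.9 ± 11.3 to 204.6 ± 19.9 CPM (log2 fold change 1.03 ± 0.16, edgeR adjusted p = 0.0200), and the call ended without WT 1, WT 2, knockout 2 or knockout 3 (adjusted p of 0.0946 to 0.154), while it held in 14 of 18 alternative fits. Among 8 negative regulators of JAK-STAT signalling, Usp18, which removes ISG15 from proteins and dampens the type I receptor, rose at the TES from 83.6 ± 15.5 to 159.8 ± 20.8 CPM (0.93 ± 0.24, edgeR adjusted p = 0.0423). That call ended without WT 1, WT 2, knockout 2 or knockout 3 (0.0882 to 0.291), and it held in 10 of 18 alternative fits.

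The lists that hold other targets and partners of the GBPs had 0 calls in the 3 regions by edgeR. Of 17 interferon-gamma induced targets 10 were above 0 at the TSS, 13 over the gene body and 14 at the TES, with medians of 0.03, 0.33 and 0.19; the gene with the smallest p was Tap1, the peptide transporter for class I antigen presentation, at 0.69 ± 0.25 at the TES (adjusted p = 0.347). In the list of inflammasome and pyroptosis partners, with medians of 0.14, -0.12 and 0.07, that gene was Ripk3, a kinase of necroptosis, at 0.90 ± 0.34 at the TSS (edgeR adjusted p = 0.727). Among 15 vacuole targeting and ubiquitin partners, with medians of -0.07, 0.02 and 0.15, it was Rnf213, a ubiquitin ligase that coats bacteria, at 0.69 ± 0.23 at the TES (edgeR adjusted p = 0.199). For 10 constitutive GTPases of the dynamin superfamily, which interferon does not induce, the medians were -0.07, -0.09 and 0.03, and the smallest p belonged to Atl2, which shapes the endoplasmic reticulum, at -0.34 ± 0.22 at the TSS (edgeR adjusted p = 0.952). Over genes and regions together, an unadjusted p under 0.05 (edgeR) occurred in 10 of 21 values for the GBP family. The other interferon-inducible GTPases had 9 of 26, and the interferon-gamma receptor and JAK-STAT list 9 of 36. The type I interferon list had 5 of 18 and the negative regulators 3 of 24. The induced targets had 7 of 51 and the inflammasome list 3 of 20. The vacuole list had 4 of 45 and the constitutive GTPases 0 of 30. DESeq2 and limma-voom called 0 in the last 4 of these lists. These values are not independent, since the regions share libraries and Gbp8 and Gbp9 share TSS reads. Over all genes an unadjusted p under 0.05 occurred in 707 of 12682 at the TSS, 642 of 12714 in the gene body and 869 of 12680 at the TES.

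**Figure D4:**
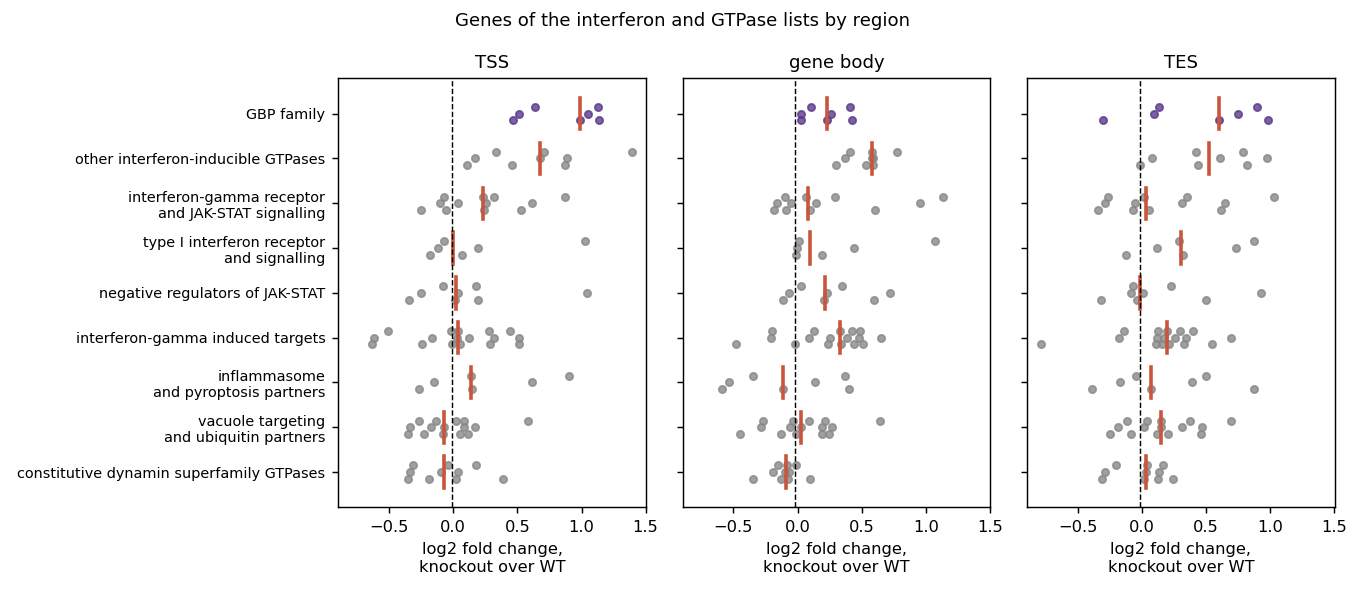
Log2 fold change of knockout over WT (horizontal axis) for every tested gene of 9 lists in each region, with the GBP family in purple, other genes in grey and the list median as a red bar. The dashed line is the median over all genes tested. The medians of the GBP family and of the other interferon-inducible GTPases lie at 0.99 and 0.68 at the TSS, and that of the constitutive dynamin superfamily at -0.07.

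The nearest genes of the tables outside the cluster were Pdlim5, 134616 bp before Gbp7, and Kyat3, 63010 bp after Gbp2. Pdlim5, a scaffold protein of the actin cytoskeleton, differed by 0.19 at the TSS, 0.12 over the gene body and -0.37 at the TES (log2 fold change). Kyat3, an aminotransferase of the kynurenine pathway, had 0.13, -0.39 and 0.01. Their groups overlapped in each region and neither was called.

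Likeness was measured as the Pearson correlation over 18 values, the log2 CPM of 6 libraries in 3 regions centred within each region. These values share libraries, depth and genotype, so they describe the libraries and carry no test. Gbp3 and Gbp7 correlated at 0.784, Gbp2 and Gbp7 at 0.673 and Gbp2 and Gbp3 at 0.586, and Gbp7 correlated most within the family with Gbp6 of chromosome 5, at 0.872. Among 2595 genes at or above the median level in every region, those most like Gbp7 were Fam117a (0.818), Irgm2 (0.806), Nab1 (0.762), Stat2 (0.755) and Simc1 (0.749). For Gbp3 they were Irgm2 (0.802), Nr4a2 (0.76), Simc1 (0.757), Ypel2 (0.753) and Agtr1a (0.741), and for Gbp2 they were Pacsin2 (0.773), Mknk1 (0.729), Pced1b (0.72), Thada (0.655) and Hspa12a (0.605). Irgm2, an immunity-related GTPase, and Simc1 were shared by the Gbp3 and Gbp7 lists. Irgm2 TES signal was 47.3, 50.0 and 29.3 CPM in WT and 70.5, 70.8 and 77.2 in knockout (edgeR adjusted p = 0.0848). Simc1 TES signal was 82.2, 98.0 and 65.6 CPM in WT libraries and 96.6, 96.9 and 98.9 in knockouts (edgeR adjusted p = 0.959).

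Markers of the cell types a whole gland can hold were set beside these values. Of 12 macrophage and myeloid markers 8 were in the tables and 0 were called. Their summed signal was 163 to 218 CPM in WT and 149 to 185 in knockout at the TSS, 136 to 170 and 131 to 153 in the gene body, and 578 to 684 and 758 to 806 at the TES. The knockout sums were thus above WT at the TES and not in the other regions, but single markers differed. In the gene body 3 of 8 had knockout values wholly above WT and 1 wholly below, where 6.51% of all genes lay above. At the TES 2 of 8 lay wholly above and 0 below, where 6.69% of all genes lay above. Endothelial markers (7 of 10 in the tables) summed to 589 to 727 CPM in WT and 565 to 623 in knockout in the gene body, with 0 called. Of 12 lymphocyte and NK markers only Ptprcap was in the tables, at 27.9 to 34.3 CPM in WT and 17.0 to 24.9 in knockout libraries at the TSS. Its groups overlapped in the other regions, with log2 fold changes of 0.09 (gene body) and 0.04 (TES). Capsule and fibroblast markers (4 of 8) summed to 171 to 381 CPM in WT and 144 to 161 in knockout gene bodies. At the TES 2 of 4 were called lower, as were 0.0946% of 12680 genes. Chromaffin markers (6 of 7), of the adrenal medulla, summed to 242 to 464 CPM in WT and 326 to 873 CPM in knockout in the gene body, with 0 called. All 6 had log2 fold changes above 0 in the gene body (median 0.813) and at the TES (median 0.625), and 3 of 6 did at the TSS (median 0.0912). Over all genes 46.3%, 47.8% and 48.4% were above 0 in these regions. No marker of these lists was at 0 in any library. The part of cell composition in the GBP values was not tested.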

How the data were processed

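RPB1 ChIP-seq was read from deposited whole-number counts per gene at the TSS, gene body and TES, 1 column per library, in tables of 12718 genes. Per the submitters' processing notes, the genome build was GRCm38 (mm10) and the tools, in no stated role, were HOMER, MACS2, BWA, Picard, bcl2fastq 2.20, Trimmomatic, limma and edgeR. The sources used here give neither the counting tool nor the window widths, the treatment of multiply aligned reads or an input library. A further deposited count table stacks the 3 regions, with 0 cells that differ.

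Each region was fitted whole with edgeR 4.0.16 in R 4.3.3: TMM scaling, filterByExpr defaults (minimum count 10, minimum total 15), quasi-likelihood F test with no covariate, Benjamini-Hochberg adjustment over all genes. CPM values are scaled within a region, so levels are not comparable between regions. Region ratios were tested as a region by genotype term with the library as block. DESeq2 1.42.0 and limma 3.58.1 (voom) were alternatives, with other scalings, filters, covariates and libraries left out. The fits were tried on simulated data with planted changes larger than those of the members in the main fit. Power for changes of the members' size was not measured. Groups and replicate numbers came from the titles and genotype labels. Nothing states that libraries came from separate cultures or litters. The p-values set the genotype difference against the spread between mice within the 2 groups. Symbols were matched to RefSeq GRCm38.p6, with 1-based coordinates.

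The members and gene lists were chosen with earlier results of these data known. Named genes are the 3 members, list genes called in any region or otherwise the list's gene with the smallest p, the neighbours in the tables, and the 5 genes most like each member. The other GBP genes and the Irgm2 values were named in addition after their values were seen. One item of the pathway is not reported here.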

Additional observations from a re-analysis of the deposited data

How the results depend on the processing

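None of the 3 genes was called at the TSS or over the gene body in any of 18 alternative fits, nor were Gbp2 and Gbp7 at the TES, and the log2 fold changes at the TSS stayed above 0 in all 18 (0.35 to 1.08 for Gbp2, 0.23 to 0.99 for Gbp3, 0.29 to 0.71 for Gbp7). At the TES Gbp3 was called with the depth class covariate (log2 fold change 1.44, adjusted p = 0.0457) and in the deeper libraries alone (2.49, adjusted p = 0.00807). That second fit has 1 WT library, assumed to vary like the others, and was chosen after seeing the data, as was the fit of the shallower libraries. Stacked scaling turned Gbp2 to -0.091 over the gene body and -0.013 at the TES. Leaving out 1 library gave Gbp2 -0.093 to 0.28 over the gene body and -0.14 to 0.33 at the TES, -0.11 to 0.25 for its TES ratio, -0.23 to 0.33 for the TSS ratio of Gbp3, and 0.11 (without WT 3) to 0.91 for its TES ratio.

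The TSS count of 43 became 107 with stacked scaling, 95 with DESeq2, 75 with the mouse number series as covariate, 158 with depth class and 68 in the shallower libraries, and ranged from 5 (without knockout 3) to 84 (without knockout 1) with 1 library left out, with 14 without WT 1 or knockout 2 and 20 without WT 2. The gene body count of 32 became 0 with stacked scaling, the mouse number series or the deeper libraries, 179 with DESeq2, 95 with depth class and 19 in the shallower libraries, and ranged from 0 (without WT 1 or any knockout library) to 37, with 12 without WT 3. The TES count of 116 became 61 with stacked scaling, 184 with depth class, 177 in the deeper and 18 in the shallower libraries, and ranged from 73 (without knockout 2) to 148. The TSS ratio count of 0 became 27 with depth class. The TES ratio count of 2 became 0 with RLE or gene body scaling and 9 with depth class, and ranged from 0 to 15 (without WT 3). The cause was not tested.

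Same-numbered libraries did not deviate together in every pair. For replicates 1, 2 and 3 the correlations of their deviations from the group means were 0.441, -0.213 and 0.358 (TSS), 0.08, -0.582 and 0.27 (gene body) and 0.0298, -0.308 and 0.214 (TES). Replicate 2 was below 0 in each region, and replicates 1 and 3 were above 0. With the replicate number as a block the TSS count was 100, the gene body count 0, the TES count 194 and the TES ratio count 0. No member was called under the block. Its log2 fold changes at the TSS were 0.65, 0.51 and 0.46 for Gbp2, Gbp3 and Gbp7, with adjusted p of 0.468, 0.789 and 0.627, and at the TES 1.05 for Gbp3 (adjusted p = 0.307).

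Depth limits the TSS and TES values, where the members had 11 to 170 reads per library.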
